A study of Homo sapiens with 9 samples.

Results

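The genes described here are 10 regulators and targets of the paired transcriptional coactivators YAP and TAZ, out of 60719 genes in the expression table. They are the target genes CCN1, CCN2 and ANKRD1, the angiomotin genes AMOTL1 and AMOTL2, the kinase gene LATS2, the receptor gene AXL, and YAP1, WWTR1 and TEAD1, which encode YAP, TAZ and the transcription factor TEAD1. Rows were matched to these symbols by Ensembl identifier, and all 10 genes passed the filter on low values that left 13879 genes for testing. The set was selected on the known pathway and on earlier results of these same libraries, including the higher TPM of ANKRD1 and CCN1 in cells given TIS sEV than in cells given Cont sEV. Differences between those groups are therefore given below as a description. Where the fit across all genes puts a member past its threshold in that comparison, this restates the values that chose the set and supports nothing.

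RNA was sequenced from recipient MDA-MB-231 cells, a human triple-negative breast cancer cell line with the genotype label WT, in 9 bulk libraries. The question was how small extracellular vesicles (sEV), membrane particles shed by cells, act on recipient cells when the donors had been made senescent by a drug. All recipients were kept for 72 h in medium labelled 5% exo-free. The No sEV group (3 libraries) received no vesicles. The Cont sEV group (3 libraries) received vesicles from MDA-MB-231 donors treated with DMSO, the solvent. The TIS sEV group (3 libraries) received vesicles from MDA-MB-231 donors treated for 72 h with nocodazole, a microtubule poison, at 100 ng/ml. TIS stands for therapy-induced senescence. Both kinds of donor were then held for 72 h in exo-free medium, from which the vesicles were collected by differential centrifugation. Senescence of the donors and other effects of nocodazole on them cannot be told apart in this design. Nothing in the labels tells whether the replicates came from separate cultures, and p-values here refer only to spread among these libraries, which may be technical.

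YAP and TAZ are coactivators without a DNA-binding domain of their own. They enter the nucleus and act on genes through TEAD transcription factors. In the Hippo pathway the kinases MST1 and MST2 (genes STK4 and STK3) activate LATS1 and LATS2, which phosphorylate YAP and TAZ and so hold them in the cytoplasm or mark them for degradation. Several targets, among them LATS2 and AMOTL2, restrain YAP and TAZ in turn, so that the pathway holds a negative feedback loop. MDA-MB-231 cells are known to carry a truncating mutation of NF2, an upstream activator of the pathway, and to have active YAP and TAZ. YAP and TAZ are regulated mainly at the protein level, which RNA does not measure.

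Promoter windows of the members were searched first, because TEAD factors recognise a short core that can be read in the sequence. RefSeq promoter windows on GRCh38.p14, from 250 bases before to 50 bases after a transcription start, matched 8 of the 10 members with 11 windows in all; CCN1 and TEAD1 had none. The core GGAATG, searched on both strands, occurred at least once in 14.0% of all 35116 windows, at least 2 times in 1.37% and at least 3 times in 0.128%. It occurred in 6 of the members' 11 windows. These belonged to 6 of the 8 members, with 3 matches for CCN2, 2 for ANKRD1 and 1 each for AMOTL2, AXL, YAP1 and LATS2. No match was found in the windows of AMOTL1 and WWTR1. The 250 bases before the start of CCN2, ANKRD1 and AMOTL2 are shown 5′ to 3′ on the strand of the gene, the minus strand in all 3, because these 3 targets of YAP and TAZ hold a match and, for CCN2 and ANKRD1, more than 1. AMOTL2 has 2 windows, of which the one with the match is shown. Capitals mark the core, read as CATTCC where it lies on the other strand.
CCN2 chr6:131951373-131951622: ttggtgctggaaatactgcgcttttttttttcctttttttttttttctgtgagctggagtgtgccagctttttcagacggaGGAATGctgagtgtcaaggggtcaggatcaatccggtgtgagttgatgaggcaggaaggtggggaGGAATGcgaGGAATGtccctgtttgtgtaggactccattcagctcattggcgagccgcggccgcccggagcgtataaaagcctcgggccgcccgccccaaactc
ANKRD1 chr10:90921088-90921337: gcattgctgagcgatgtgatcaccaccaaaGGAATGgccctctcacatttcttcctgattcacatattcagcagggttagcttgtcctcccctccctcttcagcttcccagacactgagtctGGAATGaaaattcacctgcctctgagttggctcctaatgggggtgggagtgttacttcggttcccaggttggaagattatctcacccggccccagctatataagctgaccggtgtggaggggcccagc
AMOTL2 chr3:134374448-134374697: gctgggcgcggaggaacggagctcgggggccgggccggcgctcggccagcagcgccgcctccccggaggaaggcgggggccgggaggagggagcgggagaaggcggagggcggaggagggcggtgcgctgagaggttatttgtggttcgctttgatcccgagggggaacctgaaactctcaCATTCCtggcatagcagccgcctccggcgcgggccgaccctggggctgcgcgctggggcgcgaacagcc
For the members with a single match outside these windows, 30 bases around it are shown. YAP1 and AXL lie on the plus strand and LATS2 on the minus strand. AXL has 2 windows. The first, which spans the GENCODE 29 start of the gene, holds no match, and the second, within the gene, holds the match shown.
YAP1 chr11:102110273-102110302: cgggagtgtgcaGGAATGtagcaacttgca
AXL chr19:41226531-41226560: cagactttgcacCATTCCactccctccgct
LATS2 chr13:21061557-21061586: gacgcccgtGGAATGccaacaatgtagcga
Counted from the RefSeq start of each window, the CCN2 matches ran from -169 to -164, from -104 to -99 and from -95 to -90. The last 2 of these lay close together. The ANKRD1 matches ran from -220 to -215 and from -128 to -123. The LATS2 match was the only one after a RefSeq start, from 10 to 15. The RefSeq starts differ from the bounds of the GENCODE 29 genes given below. By GENCODE, LATS2 ends at 21061547 on the minus strand, and its match lies before the gene. The AMOTL2 and AXL matches and the second ANKRD1 match lie inside the GENCODE genes. The AP-1 motif TGACTCA (in 4.95% of all windows) and the CArG box, a serum response factor motif (in 1.29%), were found in no window of a member. A match describes letters only and is not evidence that a factor binds there.

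**Figure D1:**
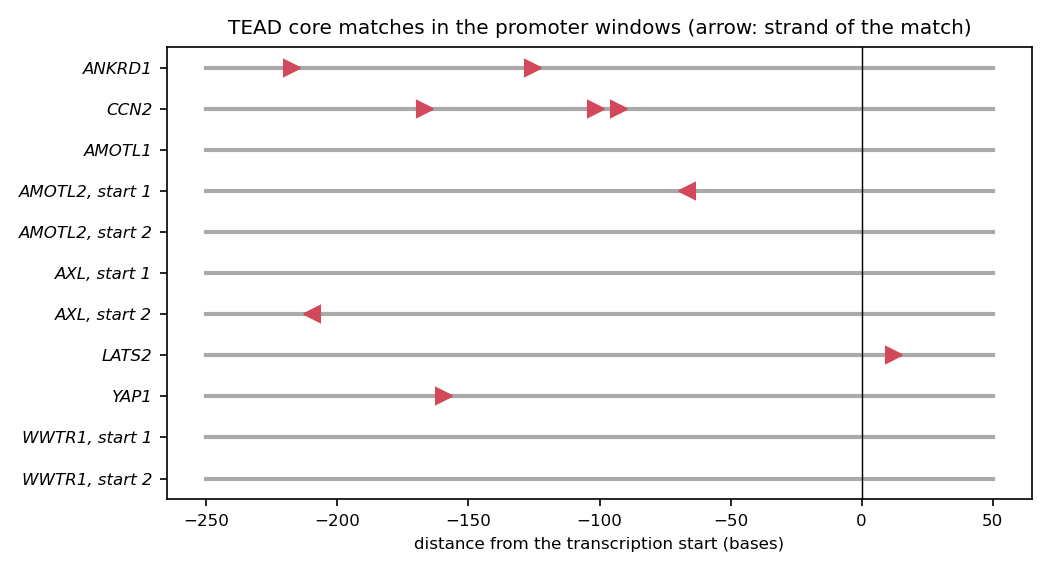
Positions of the TEAD core in the 11 promoter windows of 8 members; the horizontal axis is the distance from the transcription start in bases and the arrowheads give the strand of each match. CCN2 holds 3 matches and ANKRD1 2, while the windows of AMOTL1 and WWTR1 hold none.

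Values are TPM, the length-scaled share of each gene's transcripts in a library total of 1000000, which keeps no read depth, so the depth behind each value is unknown. Between 21292 and 21975 genes were above 0 in a library. In a principal component analysis TIS sEV replicate 2 and TIS sEV replicate 3 stood apart from the other libraries, and the lowest library weights were those of Cont sEV replicate 2 (0.734) and TIS sEV replicate 2 (0.764). The share of TPM from mitochondrially encoded genes was 2.69% ± 0.223 (SD, n = 3) in No sEV, 3.06% ± 0.427 in Cont sEV and 2.27% ± 0.227 in TIS sEV, with the TIS sEV and Cont sEV libraries not overlapping. Markers matched the labelled line, with VIM at a mean of 2249 TPM, CDH1 at 0.2378 TPM, ESR1 at 0.0553 TPM and PGR at 0.00924 TPM, although EPCAM (23.02 TPM) and ERBB2 (28.09 TPM) were present. The 8 markers of leukocytes, endothelium and fibroblasts summed to between 156 and 172 TPM in every library, nearly all of it CD68, and to between 9.6 and 12.3 TPM without CD68. Of these, CD3E and DCN were at 0 in most libraries.

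The members spanned a wide range of abundance. CCN1, a secreted matricellular protein, was the highest, with a mean of 1637 TPM over the 9 libraries and only 0.699% of tested genes above it. ANKRD1, an ankyrin-repeat protein of muscle that is a widely used YAP/TAZ reporter gene, followed at 663.6 TPM, with 1.45% of tested genes above it. The receptor tyrosine kinase gene AXL was at 295.2 TPM, CCN2, a matricellular relative of CCN1, at 202.7 TPM, YAP1 at 106.6 TPM and AMOTL2 at 66.65 TPM. WWTR1 (44.62 TPM) and TEAD1 (43.47 TPM) overlapped in range, as did AMOTL1 (15.39 TPM) and LATS2 (14.29 TPM). All other neighbours in this order were apart in every library. RNA was measured in bulk, so the share of cells that express a gene and its level per cell cannot be told apart.

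Within each family 1 or 2 genes held most of the TPM. YAP1 made up 70.5% ± 1.4 (SD, n = 9) of the summed TPM of YAP1 and WWTR1. CCN1 made up 87.9% ± 0.514 of the CCN family and CCN2 10.9% ± 0.397, while CCN4 and CCN6 were each listed at 0 in all libraries but 1. AMOTL2 supplied 80.7% ± 1.08 of angiomotin TPM and AMOT only 0.67% ± 0.122. AXL supplied 92.6% ± 0.353 of the TPM of the TAM receptors, which are TYRO3, AXL and MERTK. The TEADs were more even, with TEAD1 at 37.0% ± 0.903, TEAD3 at 34.1% ± 0.952, TEAD4 at 15.7% ± 1.14 and TEAD2 at 13.2% ± 0.415. LATS2 held 59.3% ± 1.78 of the TPM of LATS1 and LATS2.

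Of the direct targets, ANKRD1 (ENSG00000148677.7, chromosome 10 from 90912096 to 90921276 in GRCh38, GENCODE 29) separated the 3 groups completely. Its TPM was 647.4, 678.1 and 664.8 in No sEV, 624.6, 630.7 and 608.6 in Cont sEV, and 699.2, 713.8 and 705.7 in TIS sEV. Every TIS sEV library lay above every No sEV library, and every No sEV library above every Cont sEV library. The means were 663.4 ± 15.4, 621.3 ± 11.4 and 706.2 ± 7.35 TPM (SD, n = 3), which put TIS sEV 13.7% above Cont sEV and 6.45% above No sEV. Cont sEV differed from No sEV by -6.35%. On the scale of log2(TPM + 1), TIS sEV exceeded Cont sEV by 0.18 (SE 0.0249). With mitochondrially encoded genes left out and TPM rescaled the difference was 0.17, and over the libraries left out in turn it ran from 0.17 to 0.20.

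CCN1 (ENSG00000142871.18, listed as CYR61 in GENCODE 29, chromosome 1 from 85580761 to 85583962) was at 1578, 1593 and 1663 TPM in No sEV, at 1583, 1569 and 1524 TPM in Cont sEV, and at 1717, 1788 and 1715 TPM in TIS sEV. The TIS sEV libraries were the 3 highest of the 9, while No sEV and Cont sEV overlapped. CCN1 binds integrins and is a classic early target of YAP and TEAD. Its TIS sEV mean of 1740 ± 41.6 TPM was 11.6% above the Cont sEV mean of 1559 ± 30.7 TPM, a log2 difference of 0.16 (SE 0.0282), and 8.01% above the No sEV mean of 1611 ± 45.5 TPM.

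CCN2 (ENSG00000118523.6, listed as CTGF in GENCODE 29, chromosome 6 from 131948176 to 131951373) differed least of these 3 between the groups. It was at 197.4, 206.9 and 204.9 TPM in No sEV, at 202.3, 196.0 and 199.4 TPM in Cont sEV, and at 206.9, 204.6 and 205.9 TPM in TIS sEV. The TIS sEV libraries lay just above the Cont sEV libraries and within the range of No sEV. CCN2 is a profibrotic matrix protein used beside CCN1 and ANKRD1 as a readout of YAP activity. The TIS sEV mean (205.8 ± 1.12 TPM) was 3.31% above that of Cont sEV (199.2 ± 3.18 TPM), a log2 difference of 0.0465 (SE 0.0266) that was 0.017 after quantile normalization.

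**Figure D2:**
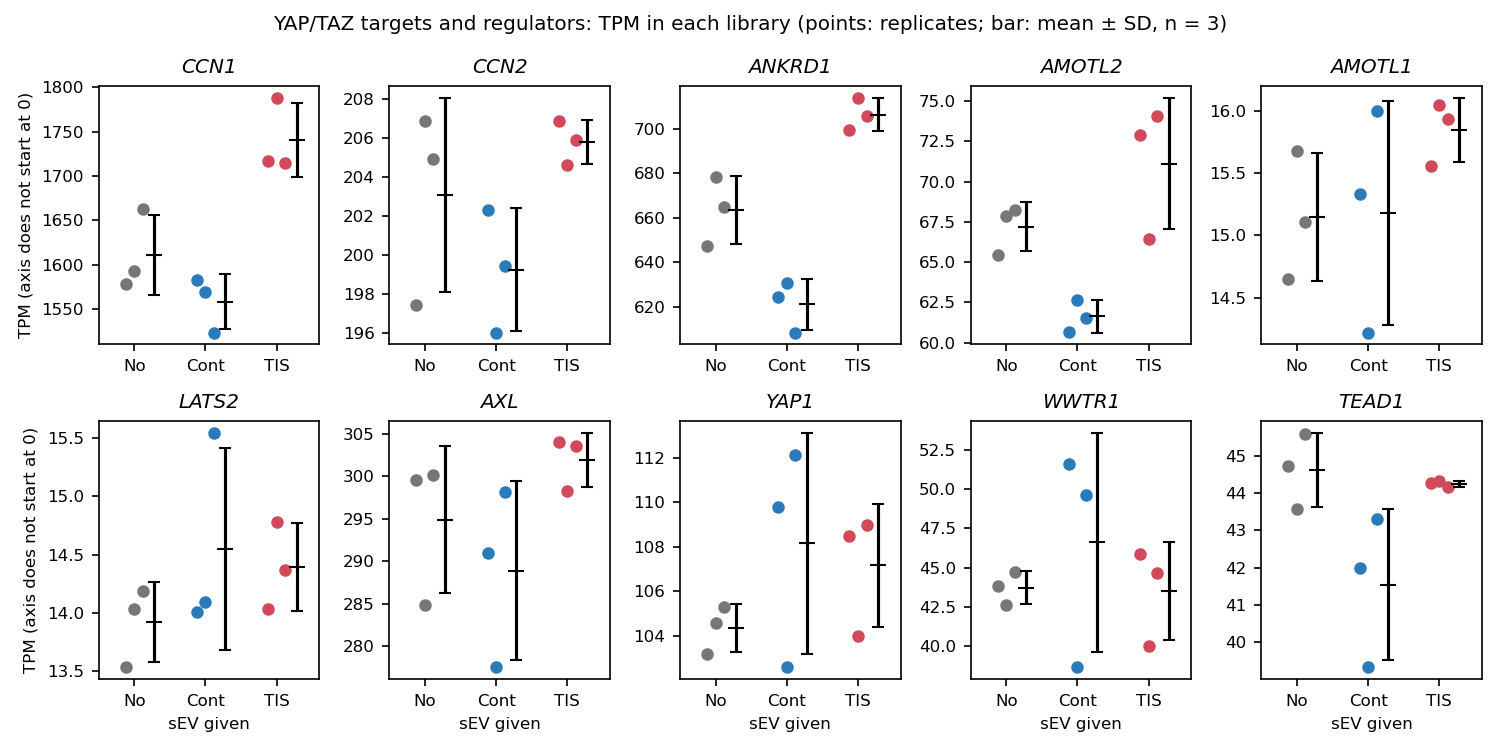
TPM of each member in every library, by the vesicles given (No, Cont or TIS sEV); points are replicates, the bar beside them is the mean with 1 SD (n = 3), and the vertical axes do not start at 0. ANKRD1 is separated in all 3 groups, CCN1 is highest in TIS sEV, and WWTR1 spreads most in Cont sEV.

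Among the genes that feed back on YAP and TAZ, AMOTL2 showed the widest difference between TIS sEV and Cont sEV, and AMOTL1 and LATS2 did not separate the groups. AMOTL2 (ENSG00000114019.15, chromosome 3 from 134355874 to 134375479) encodes an angiomotin that binds YAP and holds it at cell junctions and actin. It was at 65.46, 67.89 and 68.24 TPM in No sEV, at 60.69, 62.68 and 61.54 TPM in Cont sEV, and at 72.86, 66.46 and 74.04 TPM in TIS sEV. The Cont sEV libraries were the 3 lowest of the 9, whereas TIS sEV replicate 2 lay inside the No sEV range. The mean was 71.12 ± 4.08 TPM in TIS sEV and 61.64 ± 0.997 TPM in Cont sEV, 15.4% apart, a log2 difference of 0.20 (SE 0.0432). Without TIS sEV replicate 2 that difference was 0.25, and with mitochondrially encoded genes left out it was 0.19.

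AMOTL1 (ENSG00000166025.18, chromosome 11 from 94706431 to 94876753), the second angiomotin, was at 14.65, 15.68 and 15.11 TPM in No sEV, at 15.33, 14.22 and 16.00 TPM in Cont sEV, and at 15.56, 16.05 and 15.94 TPM in TIS sEV. All 3 groups overlapped. LATS2 (ENSG00000150457.9, chromosome 13 from 20973032 to 21061547), the kinase that phosphorylates YAP and TAZ and is itself a target, was at 13.53, 14.03 and 14.19 TPM in No sEV, at 14.01, 14.09 and 15.55 TPM in Cont sEV, and at 14.03, 14.78 and 14.37 TPM in TIS sEV. Its highest value was in Cont sEV replicate 3, and its groups overlapped as well. The LATS2 difference between TIS sEV and Cont sEV was -0.0139 on the log2 scale (SE 0.056) and ran from -0.0387 to 0.0318 with 1 library left out, lying above 0 when Cont sEV replicate 3 was left out (0.0318) and when TIS sEV replicate 1 was (0.00321).

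AXL (ENSG00000167601.12, chromosome 19 from 41219203 to 41261766), a receptor tyrosine kinase linked to invasion and a YAP target, was at 299.6, 284.9 and 300.2 TPM in No sEV, at 291.0, 277.5 and 298.2 TPM in Cont sEV, and at 304.0, 298.3 and 303.6 TPM in TIS sEV. TIS sEV lay above Cont sEV by a narrow gap between 298.3 and 298.2 TPM, and overlapped No sEV. The mean was 4.53% higher in TIS sEV than in Cont sEV, a log2 difference of 0.0641 (SE 0.0325), or 0.0356 without Cont sEV replicate 2, the lowest AXL library.

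The coactivators themselves did not separate the groups. YAP1 (ENSG00000137693.14, chromosome 11 from 102110461 to 102233423) was at 103.2, 104.6 and 105.3 TPM in No sEV, at 109.8, 102.6 and 112.1 TPM in Cont sEV, and at 108.5, 104.0 and 109.0 TPM in TIS sEV. WWTR1 (ENSG00000018408.15, chromosome 3 from 149517235 to 149736714), which encodes TAZ, was at 43.83, 42.60 and 44.69 TPM in No sEV, at 51.58, 38.65 and 49.64 TPM in Cont sEV, and at 45.87, 40.01 and 44.67 TPM in TIS sEV. The Cont sEV group held both the highest and the lowest WWTR1 library of the 9. The coefficient of variation of WWTR1 was 15% in Cont sEV, 7.12% in TIS sEV and 2.41% in No sEV. The difference between TIS sEV and Cont sEV was -0.013 for YAP1 (SE 0.0373) and -0.0888 for WWTR1 (SE 0.0952) on the log2 scale. Both differences depended on single libraries. That of WWTR1 was -0.0119, -0.215 and -0.039 without Cont sEV replicates 1, 2 and 3, and -0.0308 without TIS sEV replicate 2. That of YAP1 was -0.00192, -0.0503 and 0.0133 without Cont sEV replicates 1, 2 and 3, and -0.0218, 0.00815 and -0.0253 without TIS sEV replicates 1, 2 and 3.

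TEAD1 (ENSG00000187079.20, chromosome 11 from 12674591 to 12944483), the DNA-binding partner, was at 44.71, 43.58 and 45.57 TPM in No sEV, at 41.98, 39.33 and 43.30 TPM in Cont sEV, and at 44.26, 44.33 and 44.17 TPM in TIS sEV. The Cont sEV libraries were the 3 lowest, and TIS sEV lay within the range of No sEV. The mean was 6.52% higher in TIS sEV than in Cont sEV, a log2 difference of 0.0904 (SE 0.0413), or 0.0525 without Cont sEV replicate 2. That library had the lowest YAP1, WWTR1, TEAD1, AXL, AMOTL1 and CCN2 values of the 9 and the highest mitochondrial share, 3.39%. The part of the mitochondrial share in these values was not tested.

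In the comparison of TIS sEV with Cont sEV, on which the members were chosen, 7 of 10 members had a higher mean (59.6% of all tested genes did). The libraries were apart and higher for 6 members, which were ANKRD1, CCN1, CCN2, AMOTL2, AXL and TEAD1 (10.9% of all tested genes), and apart and lower for 0 (4.47%). The median log2 difference was 0.0618 over the members and 0.0203 over all tested genes, or 0.0351 and 0.00723 without Cont sEV replicate 2, and 0.0412 and 0.000732 under median-of-ratios scaling. limma, with Benjamini-Hochberg adjustment over 13879 genes, called 13 genes (0.0937%), 6 higher and 7 lower, and ANKRD1, whose values helped choose the set, was 1 of them. That is a description of the choice and not a test of it. The split was 3 higher and 11 lower under median-of-ratios scaling and 6 higher and 11 lower under quantile normalization, and no member was among the genes called in either. The count over all genes was 8 without No sEV replicate 1, 3 without No sEV replicate 3, 2 without Cont sEV replicate 2, 3 without Cont sEV replicate 3, and 2, 4 and 6 without TIS sEV replicates 1, 2 and 3. ANKRD1 was not among the called genes without No sEV replicate 3, without any 1 of the Cont sEV libraries or without any 1 of the TIS sEV libraries.

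Against No sEV, the vesicle-free cells, no member passed the test in either direction. In TIS sEV vs No sEV limma called 0 of 10 members after adjustment over all genes, and 1 gene (0.00721%) of the 13879 was called, or 2 when replicate 2 of Cont sEV, or replicate 2 or 3 of TIS sEV, was left out. ANKRD1 was higher by 0.0903 on the log2 scale (95% CI 0.0347 to 0.146, adjusted p = 0.469) and CCN1 by 0.11 (95% CI 0.0482 to 0.174, adjusted p = 0.419), each in 3 of 3 libraries above all No sEV libraries. These 2 were the members with an unadjusted p under 0.05 (1106 of all tested genes had one) and the members apart and higher (11.3% of all tested genes), and 0 were apart and lower (2.77%). AMOTL2 differed by 0.0794 (95% CI -0.017 to 0.176, adjusted p = 0.689) and YAP1 by 0.0375 (95% CI -0.0458 to 0.121, adjusted p = 0.831). Without TIS sEV replicate 2 these were 0.127 and 0.0586, and without TIS sEV replicate 3 they were 0.0499 and 0.0252. Under median-of-ratios scaling ANKRD1 was at 0.0572, CCN1 at 0.0781, AMOTL2 at 0.0468 and YAP1 at 0.00469. WWTR1 had the widest interval, from -0.221 to 0.204, and CCN2 among the narrowest, from -0.04 to 0.0788. A higher mean was seen for 8 of 10 members (66.7% of all tested genes), with a median difference of 0.0413 against 0.032 over all tested genes. These medians were 0.00942 and 0.00125 under median-of-ratios scaling, and 0.0217 and -0.00166 under quantile normalization.

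In Cont sEV vs No sEV, which compares vesicles of DMSO-treated donors with no vesicles, limma called 0 genes of 13879 (0%), with 837 at an unadjusted p under 0.05, and 0 members, with 3. Without Cont sEV replicate 2, 1 gene was called. ANKRD1 (-0.0944, 95% CI -0.15 to -0.0389, adjusted p = 0.728), AMOTL2 (-0.12, 95% CI -0.219 to -0.0262, adjusted p = 0.789) and TEAD1 (-0.10, 95% CI -0.194 to -0.0097, adjusted p = 0.807) were the members apart and lower, in 3 of 3 libraries each (4.47% of all tested genes). No member was apart and higher (6.72% of all tested genes). A higher mean was seen for 4 members (56.5% of all tested genes), and the median difference was -0.0283 over the members and 0.011 over all tested genes. Without Cont sEV replicate 2 these medians were -0.00818 and 0.0239, and TEAD1 was at -0.0639. Without No sEV replicate 3 the medians were -0.0186 and 0.0158. The Cont sEV and TIS sEV libraries are shared with the comparison that chose the members, so neither count is independent of that choice.

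**Figure D3:**
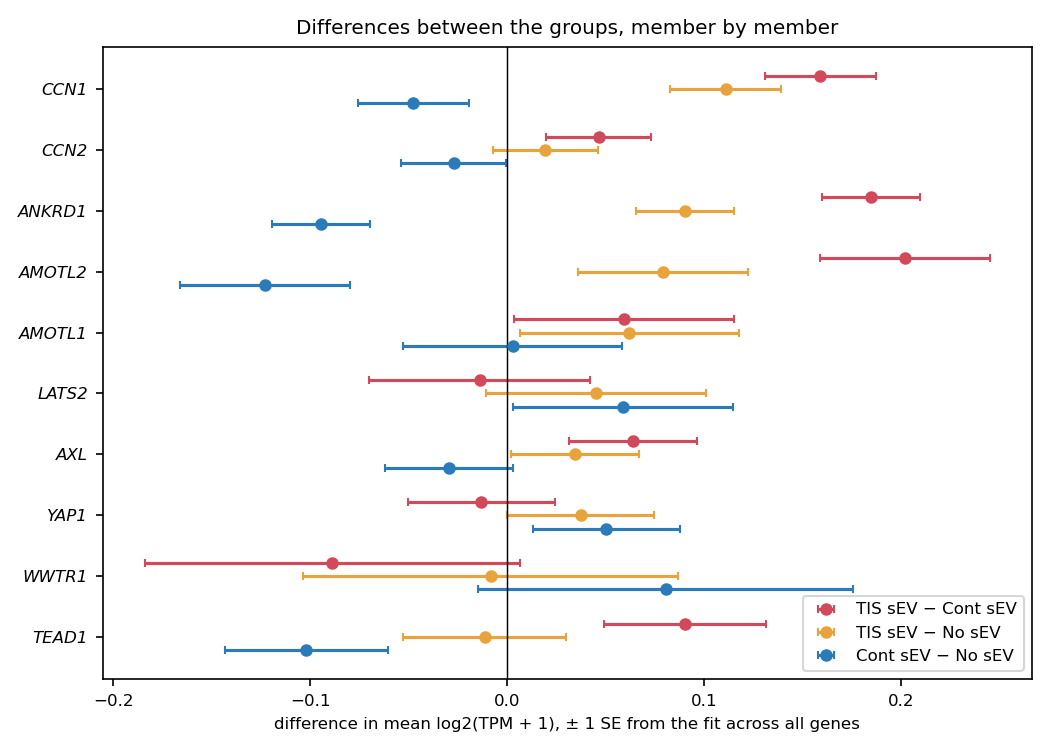
Difference in mean log2(TPM + 1) for each member in the 3 comparisons; points are the differences and bars 1 SE from the fit across all genes. ANKRD1, CCN1, CCN2, AMOTL1, AMOTL2 and AXL lie above 0 in both comparisons with TIS sEV. ANKRD1, CCN1, CCN2, AMOTL2, AXL and TEAD1 lie below 0 in Cont sEV − No sEV.

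The members did not vary as 1 block across the 9 libraries. The closest pair was ANKRD1 and CCN1 (Pearson r = 0.917, Spearman rho = 0.917, n = 9), whose r was 0.538 once group means were removed. YAP1 and WWTR1 followed (r = 0.856, rho = 0.883), with r = 0.921 within groups, and AXL and TEAD1 (r = 0.828, rho = 0.7) with r = 0.917 within groups. ANKRD1 and AMOTL2 (r = 0.851, rho = 0.8) had r = 0.0238 within groups. With the 2 libraries farthest from the median of the first gene left out, r over all groups was 0.86, 0.732, 0.715 and 0.985 for these pairs in that order. Cont sEV replicate 2 was the lowest of the 9 for YAP1, WWTR1, AXL and TEAD1, and its part in these values was not tested. For ANKRD1 and the coactivators r was -0.236 with YAP1 (rho = -0.25) and -0.418 with WWTR1 (rho = -0.417). Within groups r was -0.464 and -0.512. Once the 2 libraries farthest from the ANKRD1 median were left out, r was 0.353 and -0.0219. In that setting neither relation held its size, and that with YAP1 turned. The 9 points share groups and libraries, so these values are a description.

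By the same measure, among the 10483 tested genes that averaged 5 TPM or more, the genes most like ANKRD1 were TIMM23 (mitochondrial import, r = 0.969, rho = 0.967), SCO1 (cytochrome c oxidase assembly, r = 0.964, rho = 0.983) and JUN (an AP-1 subunit, r = 0.952, rho = 0.95). Those most like CCN1 were TIMM23 (r = 0.969, rho = 0.967), GTF2F2 (r = 0.959, rho = 0.917) and TMEM243 (r = 0.957, rho = 0.95). Those most like CCN2 were MEMO1 (r = 0.95, rho = 0.967), IARS2 (r = 0.942, rho = 0.783) and SERBP1 (r = 0.939, rho = 0.833). ANKRD1 and CCN1, themselves correlated at r = 0.917, thus shared their first gene, and CCN2 shared none of its 3 with them. Within groups r was 0.803, 0.869 and 0.465 for the genes of ANKRD1 in that order. It was 0.809, 0.767 and 0.861 for those of CCN1, and 0.995, 0.956 and 0.885 for those of CCN2. All were picked as the highest r among 10483 genes over 9 libraries, so they are a description.

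**Figure D4:**
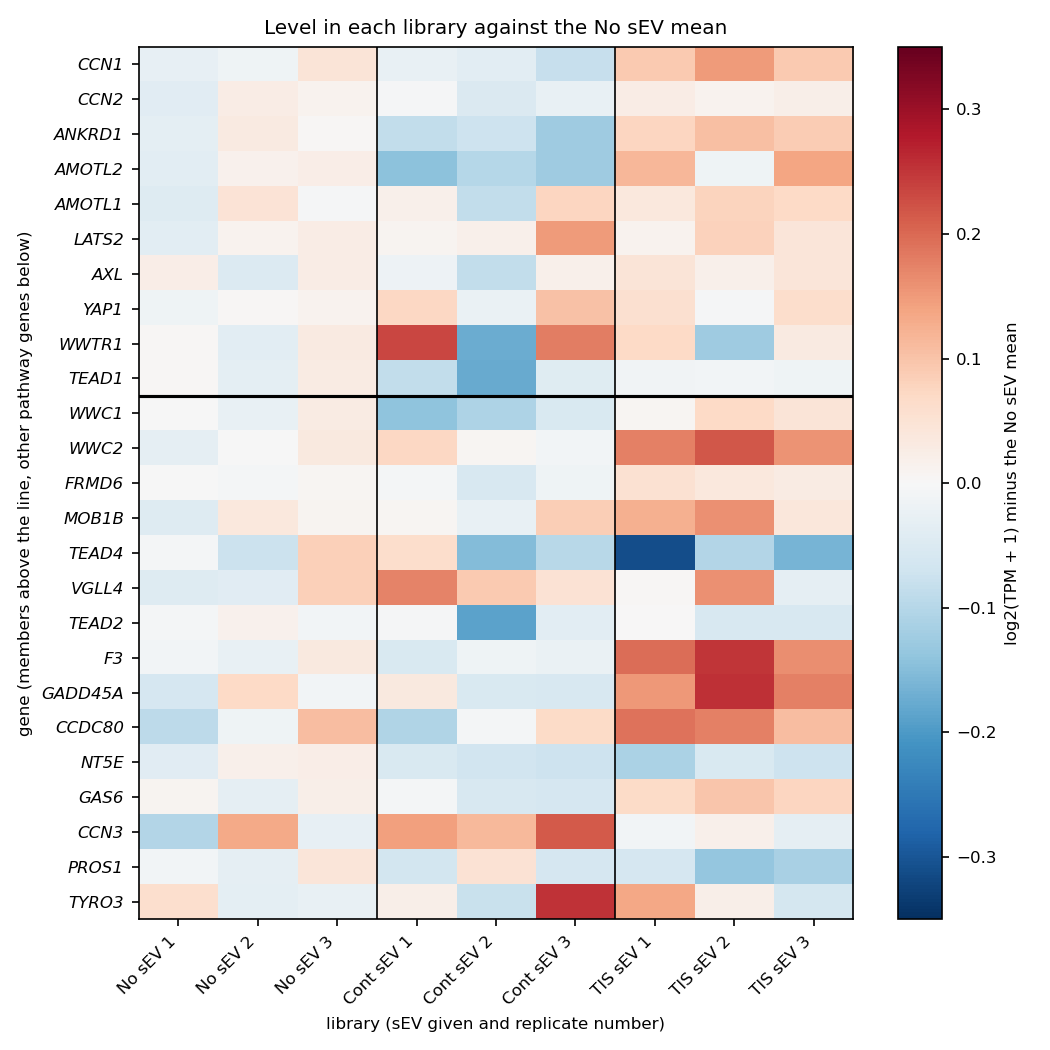
log2(TPM + 1) of each member and of the other named pathway genes in each library, minus the No sEV mean of that gene (colour scale). CCN1, ANKRD1 and F3 are above the No sEV mean in all 3 TIS sEV libraries, and Cont sEV replicate 2 is low for WWTR1, TEAD1 and TEAD2.

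Of 49 other genes of the pathway, 43 were tested, and F3 was the only one called, in TIS sEV vs Cont sEV. Of all tested genes, 0.0937% were called in that comparison. F3 encodes tissue factor, the starter of coagulation. It was at 300, 296.9 and 309.4 TPM in No sEV, at 291.0, 298.9 and 297.4 TPM in Cont sEV, and at 345.9, 359.3 and 338.2 TPM in TIS sEV, so that all TIS sEV libraries lay above the other 6. It was higher by 0.23 on the log2 scale against Cont sEV (SE 0.0292, limma adjusted p = 0.0252) and by 0.20 against No sEV (SE 0.0292, limma adjusted p = 0.13). The call was lost without No sEV replicate 1 or 3, without any 1 of the Cont sEV libraries, and without TIS sEV replicate 1 or 2 (0 genes each). F3 was already known to differ here when the lists were made.

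All 16 other YAP/TAZ targets were tested. In TIS sEV vs Cont sEV 1 of them was called higher and 0 lower, where 0.0937% of all tested genes were called. A higher mean was seen for 12 (59.6% of all tested genes), and the median difference was 0.0663 against 0.0203 over all tested genes. GADD45A, a stress and growth-arrest gene, was at 83.37, 89.64 and 84.85 TPM in TIS sEV and no higher than 78.62 TPM elsewhere, a difference of 0.22 against Cont sEV (limma adjusted p = 0.16) and of 0.19 against No sEV (limma adjusted p = 0.324). The matrix gene CCDC80 differed by 0.17 from Cont sEV (limma adjusted p = 0.368). NT5E, which encodes the ectonucleotidase CD73, differed from No sEV by -0.0791 in TIS sEV, lower in 3 of 3 libraries (limma adjusted p = 0.551). It was likewise lower than No sEV in 3 of 3 Cont sEV libraries (-0.0638, limma adjusted p = 0.807). TIS sEV and Cont sEV overlapped (TIS sEV minus Cont sEV -0.0153, limma adjusted p = 0.899). In TIS sEV vs No sEV 0 of the 16 were called (0.00721% of all tested genes) and 11 had a higher mean (66.7% of all tested genes). In Cont sEV vs No sEV 0 were called (0% of all tested genes) and 7 had a higher mean (56.5% of all tested genes). In each comparison 4 of the 16 had an unadjusted p under 0.05. Of the 13879 tested genes 1388 had such a p in TIS sEV vs Cont sEV, 1106 in TIS sEV vs No sEV and 837 in Cont sEV vs No sEV.

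Of 18 upstream Hippo genes 17 were tested, AMOT being too low, and limma called 0 in any comparison, with 3, 1 and 2 at an unadjusted p under 0.05 in TIS sEV vs Cont sEV, TIS sEV vs No sEV and Cont sEV vs No sEV (1388, 1106 and 837 of the 13879 tested genes). WWC1 and WWC2, the KIBRA scaffold proteins that activate LATS kinases, had the smallest p-values against Cont sEV. WWC1 was at 61.06, 63.80 and 62.69 TPM in TIS sEV and at 54.98, 56.32 and 58.49 TPM in Cont sEV, without overlap (difference 0.14, limma adjusted p = 0.229). In No sEV it was at 60.65, 59.61 and 62.03 TPM, overlapping TIS sEV (TIS sEV minus No sEV 0.0404, limma adjusted p = 0.809). These values were above every Cont sEV library (Cont sEV minus No sEV -0.101, limma adjusted p = 0.789). WWC2 was at 33.47, 34.44 and 33.03 TPM in TIS sEV and at most 31.08 TPM in the other 6 libraries (0.16 against Cont sEV, limma adjusted p = 0.229, and 0.18 against No sEV, limma adjusted p = 0.318). FRMD6, a FERM-domain protein upstream of the kinases, differed by 0.0654 from Cont sEV (limma adjusted p = 0.372), and MOB1B, a LATS cofactor, by 0.11 from No sEV (limma adjusted p = 0.663). The median over the 17 was 0.0401 in TIS sEV vs Cont sEV, 0.0404 in TIS sEV vs No sEV and 0.00873 in Cont sEV vs No sEV. Over all tested genes these medians were 0.0203, 0.032 and 0.011. Higher means were seen for 12, 15 and 10 of the 17, beside 59.6%, 66.7% and 56.5% of all tested genes. NF2 itself was low, at 2.866 to 3.602 TPM in the 9 libraries.

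Of the other 7 TEAD and cofactor genes 5 were tested and limma called 0 in any comparison, with 1 at an unadjusted p under 0.05, TEAD4 in TIS sEV vs No sEV (1106 of the 13879 tested genes had one there). VGLL1 and VGLL2, cofactors that compete for TEADs, were listed at 0 in all 9 libraries. TEAD4 was at 15.60, 18.18 and 17.40 TPM in TIS sEV and at 19.49, 18.53 and 20.81 TPM in No sEV. It was lower in TIS sEV than in No sEV without overlap (-0.19, limma adjusted p = 0.588). In Cont sEV it was at 20.47, 17.53 and 18.25 TPM, overlapping TIS sEV (TIS sEV minus Cont sEV -0.13, limma adjusted p = 0.615). VGLL4, a repressor of TEADs, differed by -0.0609 from Cont sEV and TEAD2 by 0.0395 (limma adjusted p = 0.805 and 0.868). The median over the 5 was 0.0134 in TIS sEV vs Cont sEV.

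Of 8 relatives and ligands of the member proteins 5 were tested and limma called 0 in any comparison, with 2, 1 and 1 at an unadjusted p under 0.05 in the 3 comparisons in the same order, beside 1388, 1106 and 837 of the 13879 tested genes. GAS6, the ligand of AXL, was at 213.9, 218.7 and 215.2 TPM in TIS sEV, above all 6 other libraries, of which the highest was 207.1 TPM. Its difference was 0.12 against Cont sEV (limma adjusted p = 0.192) and 0.0796 against No sEV (limma adjusted p = 0.539). CCN3, a CCN family relative with effects often opposite to CCN2, was at 21.37, 21.84 and 21.05 TPM in TIS sEV and at 23.88, 23.39 and 25.17 TPM in Cont sEV, a difference of -0.165 (limma adjusted p = 0.413). In No sEV it was at 19.98, 23.72 and 21.08 TPM. TIS sEV minus No sEV was -0.00774 (limma adjusted p = 0.99) and Cont sEV minus No sEV was 0.157 (limma adjusted p = 0.807). PROS1, a ligand of TYRO3 and MERTK, differed in TIS sEV by -0.078 from Cont sEV, with overlap (limma adjusted p = 0.687). Its difference from No sEV was -0.103, lower in 3 of 3 libraries (limma adjusted p = 0.685). TYRO3 in TIS sEV differed by 0.0317 from No sEV (limma adjusted p = 0.95).

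**Figure D5:**
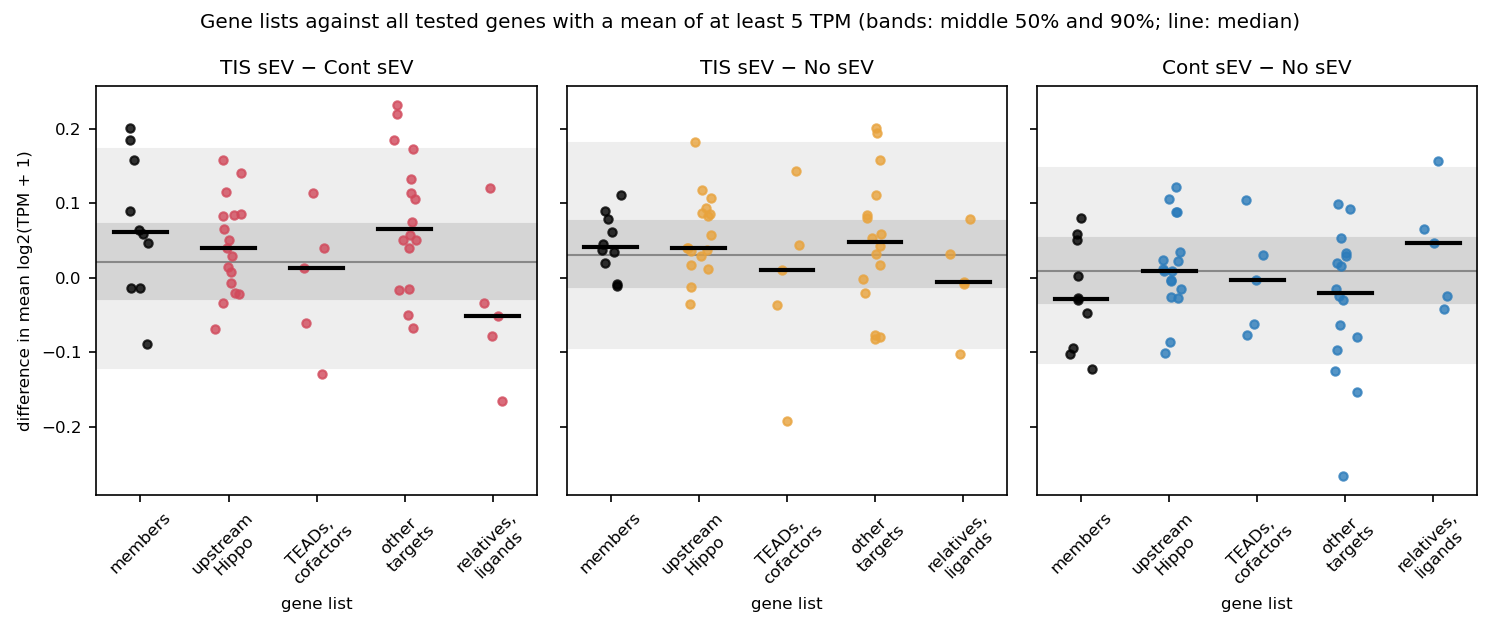
Differences in mean log2(TPM + 1) of each tested gene, by list, in the 3 comparisons. Points are genes and short bars the list medians. The line is the median of all tested genes that averaged 5 TPM or more, and bands are their middle 50% and 90%. In TIS sEV − Cont sEV the members AMOTL2 and ANKRD1 and some other targets lie above the band of 90%, and 4 of the 5 relatives and ligands lie below 0.

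TEAD cores were also counted in the promoter windows of the lists. A match was found for 4 of the 11 other targets with a window (FOXF2, NUAK2, PTPN14 and TGFB2), which do not include F3, GADD45A or CCDC80. It was found for 3 of 16 upstream Hippo genes (AJUBA, TAOK3 and WWC2), 1 of 6 TEAD and cofactor genes (VGLL1) and 1 of 5 relatives and ligands (CCN6). By window, the lists in this order held a match in 4 of 11, 3 of 24, 1 of 11 and 1 of 6. Of all 35116 windows, 14.0% held one. Most members could be told apart from other genes in the transcript sequence. The share of a member's 31-base words found in another gene was at most 0.26% for ANKRD1, CCN1, CCN2, AMOTL1, LATS2 and TEAD1, and 3.05% for AXL, 2.57% for AMOTL2, 2.15% for YAP1 and 1.52% for WWTR1. Overlapping genes on the opposite strand of 5 members were each below 0.06 TPM, and RPL39P5, which overlaps AMOTL2 on the same strand, was at 0.781 TPM.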

How the data were processed

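TPM per gene of 9 RNA-seq libraries were used as deposited, in 1 table of 60719 Ensembl genes in which each library sums to 1000000. The submitters' processing notes name, for the authors' own steps, Salmon 1.4.0, Trim Galore 0.6.6, FastQC 0.11.9 and DESeq2 1.28.0, and GRCh38.p13 as genome build. Strandedness and annotation release are not given in the sources used here. Counting error is unknown, since TPM hold no depth, and count models were not used. The labels gave groups and replicate numbers. Symbols were matched by Ensembl identifier (60700 genes), coordinates came from GENCODE 29 on GRCh38, and promoters from RefSeq on GRCh38.p14.

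Values were transformed to log2(TPM + 1), which understates the change of low genes. A gene was kept if 3 or more libraries reached 1 TPM (13879 genes). All 9 libraries entered 1 fit of limma 3.58.1 (R 4.3.3) with a variance trend, and two-sided moderated tests were adjusted by Benjamini-Hochberg over all tested genes at 0.05. Only the fit was tested on simulated data, with planted differences larger than those of the members. Motif searches and correlations were made in Python 3.11.15, and figures drawn with matplotlib 3.10.9.

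The members, the pathway lists and the tests were chosen with earlier results of these data known. Named beside the members were, per list, genes called in any comparison and the 3 genes of smallest p in each comparison with TIS sEV (mean of at least 5 TPM), and the 3 genes most correlated with ANKRD1, CCN1 and CCN2. Alternatives were other pseudocounts, filters, scalings and variance models, library weights, the replicate number as a block, fits of 6 libraries, and each library left out in turn.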

Additional observations from a re-analysis of the deposited data

How the results depend on the processing

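Each result was recomputed under 20 alternatives. The members' median difference moved by less than the spread between replicates under all 20 in each comparison, although by over 1.5 times where the text gives it. That spread was the SD within groups of the median member level of each library, not the spread of a difference. It cannot tell whether a median this small held. In TIS sEV vs No sEV the median went from 0.0413 to 0.00942 under median-of-ratios scaling and still counted as within that spread. In TIS sEV vs Cont sEV, 198 of 200 member differences moved by less than the spread of that gene within groups. ANKRD1 (0.151) and CCN2 (0.017) moved further under quantile normalization. Within the 198, signs turned for LATS2 (0.0318 without Cont sEV replicate 3, 0.00321 without TIS sEV replicate 1). They also turned for YAP1 (0.0133 without Cont sEV replicate 3, 0.00815 without TIS sEV replicate 2). In that comparison, which chose the set, the number of members called (ANKRD1 or none) was 0 with no filter on low values, median-of-ratios scaling, quantile normalization, constant prior variance or only the 6 libraries compared, and 0 to 1 when 1 library was left out. The number of pathway genes called was 0 with no filter, constant prior variance or only the 6 libraries, and 0 to 1 with 1 library left out. The count over all genes was 2 with constant prior variance, 3 with only the 6 libraries, and 2 to 13 with 1 library left out.

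In TIS sEV vs No sEV the count over all genes was 9 with no filter, 0 with constant prior variance, 2 with only the 6 libraries, and 1 to 2 with 1 library left out. In Cont sEV vs No sEV it was 7 with no filter, 1 with a minimum of 5 TPM, and 0 to 1 with 1 library left out. In both, 0 members and 0 pathway genes were called throughout. Signs turned in TIS sEV vs No sEV for CCN2 (-0.0135 under median-of-ratios scaling, -0.00124 under quantile normalization, -0.000745 to 0.033 with 1 library left out), LATS2 (-0.000145 under quantile normalization), TEAD1 (-0.0279 to 0.00353 with 1 library left out) and WWTR1 (0.00395 with library weights, -0.0466 to 0.0498 with 1 library left out). In Cont sEV vs No sEV the sign of AMOTL1 turned (-0.00834 under median-of-ratios scaling, -0.012 under quantile normalization, -0.0336 to 0.0464 with 1 library left out). The cause of these changes was not tested.

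With the replicate number as a block (replicate block), 0 members and 0 pathway genes were called in TIS sEV vs Cont sEV, and 9 genes in all. Deviations of same-numbered libraries from their group means correlated between -0.0574 and 0.14, so the numbers were not taken to pair the samples. With 3 libraries a group and unknown depth, the 95% interval of most member differences included 0.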
